A study of Mus musculus with 12 samples.

Results

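The 10 genes described here are p53 targets and genes of apoptosis and senescence: Cdkn1a, Cdkn2a, Gadd45a, Ccng1, Mdm2, Bax, Bbc3, Pmaip1, Bcl2l11 and Trp53inp1. They were chosen by symbol out of the 54833 genes of the count table, each symbol matched 1 row, and all 10 were among the 21495 genes that passed the filter on low counts. RNA-seq was done on tissue around the hematoma in the ipsilateral caudate putamen of wild type male C57BL/6 mice, 24 h after surgery. The 4 groups were young sham and young ICH (8 to 10 weeks old) and aged sham and aged ICH (20 to 22 months old), with 3 samples in each. Intracerebral hemorrhage (ICH) was induced with type IV collagenase, an enzyme that breaks down vessel walls, and sham mice received saline. Tissue of a few mice was pooled for each sample, and the SD and tests therefore measure how pools vary, not single mice.

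The transcription factor p53 is held low by the ubiquitin ligase Mdm2 and is released by DNA damage, oxidative stress and other insults. Its target genes stop the cell cycle (Cdkn1a, which encodes the cyclin-dependent kinase inhibitor p21), feed back on p53 itself (Mdm2, Ccng1, Trp53inp1) or promote mitochondrial apoptosis (Bax, Bbc3, Pmaip1), and several of them also respond to other stress pathways. Bcl2l11 (Bim) is a proapoptotic gene driven mainly by FOXO and JNK signaling, and Cdkn2a encodes p16INK4a and p19ARF, which mark senescent cells and accumulate with age.

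Total counts ranged from 28410896 to 37785160 per sample. The summed level of 9 markers of striatal projection neurons was 1513 to 3024 CPM (counts scaled to the normalized library size) in sham samples and 325.3 to 1912 CPM in ICH samples. Striatal markers were thus present in every sample. Sham and ICH ranges overlapped in aged mice (1513 to 2640 and 325.3 to 1912 CPM) but not in young mice (1774 to 3024 and 513.4 to 1725 CPM). The sum of 4 markers of neurons in general was 5524 to 6807 CPM in sham and 3963 to 5325 CPM in ICH samples, without overlap. That of 6 oligodendrocyte markers overlapped in young mice but not in aged mice, with 5159 to 6733 CPM after sham surgery and 4131 to 4813 CPM after ICH. Summed levels of 7 neutrophil markers were 10.1 to 24.0 CPM in sham and 19.5 to 50.1 CPM in ICH samples, and those of 6 monocyte and macrophage markers were 3.17 to 15.3 and 24.3 to 47.9 CPM. Within each age the neutrophil sums did not overlap. They were 10.06 to 12.47 and 19.53 to 35.48 CPM in young mice, and 14.43 to 23.96 and 35.85 to 50.15 CPM in aged mice. Most of the sham sums came from 1 gene, Csf3r, which averaged 9.60 CPM in young sham and 12.8 CPM in aged sham samples. After ICH it averaged 16.3 CPM in young and 19.7 CPM in aged mice. Ly6g, a defining neutrophil gene, was low in all groups, with at most 0.126 CPM in young ICH samples, and 0 genes of these lists were at 0 in every sample. The sum of 5 endothelial markers was 172 to 240.6 CPM in sham and 250.6 to 302.3 CPM in ICH samples, and that of 6 microglial markers was 236.1 to 293 and 243 to 283.6 CPM. A group of 3 libraries stood apart, since 5 choroid plexus markers summed to 4040 CPM in young ICH replicate 3, 1545 CPM in aged ICH replicate 1 and 1959 CPM in aged ICH replicate 2, against at most 484 CPM in the other 9. Whether these shifts in cell content have a part in the changes with ICH was not tested, and in bulk tissue more cells of a type and more RNA per cell cannot be told apart.

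A p53 binding site consists of a pair of 10-base half-sites. RefSeq promoter windows of the files' build (GRCm38.p6), from 250 bases before to 50 bases after a transcription start, were at hand for 8 of the 10 genes (13 windows) and not for Pmaip1 and Trp53inp1. The p53 half-site, a palindromic motif searched by exact matches to its consensus and therefore the same on both strands, was found in 5 of these 13 windows, in 5 of the 8 genes, and in 8.36% of the 32851 windows of all genes. The last share counts windows, not genes. The 10 genes were chosen in part as p53 targets, so the higher share among them is not a result of these data. The Cdkn1a window at chr17:29090729-29091028 (plus strand), upstream of and across the first exon of the gene at chr17:29090976-29100727, was the only one of the 13 with 2 exact matches. They began 73 and 51 bases before the start and did not adjoin. The 10 bases directly after the second match, tgacatgttc, differ from the consensus at their first base only and were therefore not marked. Whether any of these stretches binds p53 was not tested. The window is shown whole because Cdkn1a was the gene that changed most clearly, with the exact matches in capitals.
Cdkn1a: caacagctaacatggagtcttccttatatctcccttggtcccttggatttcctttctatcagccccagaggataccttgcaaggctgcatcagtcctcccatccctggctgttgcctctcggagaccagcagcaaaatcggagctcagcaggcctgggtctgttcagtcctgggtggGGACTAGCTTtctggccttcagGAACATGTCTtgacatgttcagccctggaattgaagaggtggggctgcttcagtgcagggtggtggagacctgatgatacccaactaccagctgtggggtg
The stretches of 60 bases around the single half-sites of Mdm2 (chr10:117710910-117710969), Bax (chr7:45467065-45467124), Ccng1 (chr11:40755437-40755496) and Gadd45a (chr6:67037413-67037472), all on the minus strand, are shown to compare them with it. Their half-sites, in capitals, began 186, 201, 185 and 40 bases before the start.
Mdm2: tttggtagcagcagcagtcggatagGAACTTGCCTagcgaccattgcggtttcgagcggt
Bax: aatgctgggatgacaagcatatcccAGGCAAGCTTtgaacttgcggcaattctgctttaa
Ccng1: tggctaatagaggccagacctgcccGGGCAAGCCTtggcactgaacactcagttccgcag
Gadd45a: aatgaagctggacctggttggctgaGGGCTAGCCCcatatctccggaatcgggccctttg
The other Cdkn1a window (chr17:29093519-29093818, plus strand), at a transcription start further downstream, held no half-site. Those of Cdkn2a, Bbc3 and Bcl2l11 held none either, which says only that the letters are absent there. Of the 13 windows, 11 held the GC box GGGCGG on either strand and 0 held the TATA box TATAAA on either strand, against 35.7% and 13.6% of all windows.

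Levels of the genes differed widely when compared per length, as FPKM, which scale the counts to gene length and depth. In young sham samples the FPKM were highest for Ccng1 (28.7 ± 3.52, SD, n = 3), followed by Mdm2 (13.1 ± 0.318), Bax (9.72 ± 0.0944) and Cdkn1a (7.42 ± 1.81), whose ranges did not overlap one another. Trp53inp1 (3.17 ± 0.434) and Gadd45a (2.32 ± 0.864) came next, followed by Bbc3 (1.59 ± 0.251) and Pmaip1 (1.41 ± 0.298), and in this order each range overlapped the next. Bcl2l11 was at 0.762 ± 0.0978 FPKM and Cdkn2a at 0.0312 ± 0.0342 FPKM, the lowest of all. In young ICH samples Cdkn1a stood at 17.9 ± 2.08 FPKM, in second place after Ccng1 (34.8 ± 0.933), with a range that overlapped that of Mdm2 (15.8 ± 1.83). In aged ICH samples the order was the same, with Cdkn1a at 18.2 ± 0.71, Mdm2 at 17.3 ± 0.516 and Bax at 13.9 ± 1.77 FPKM.

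**Figure D1:**
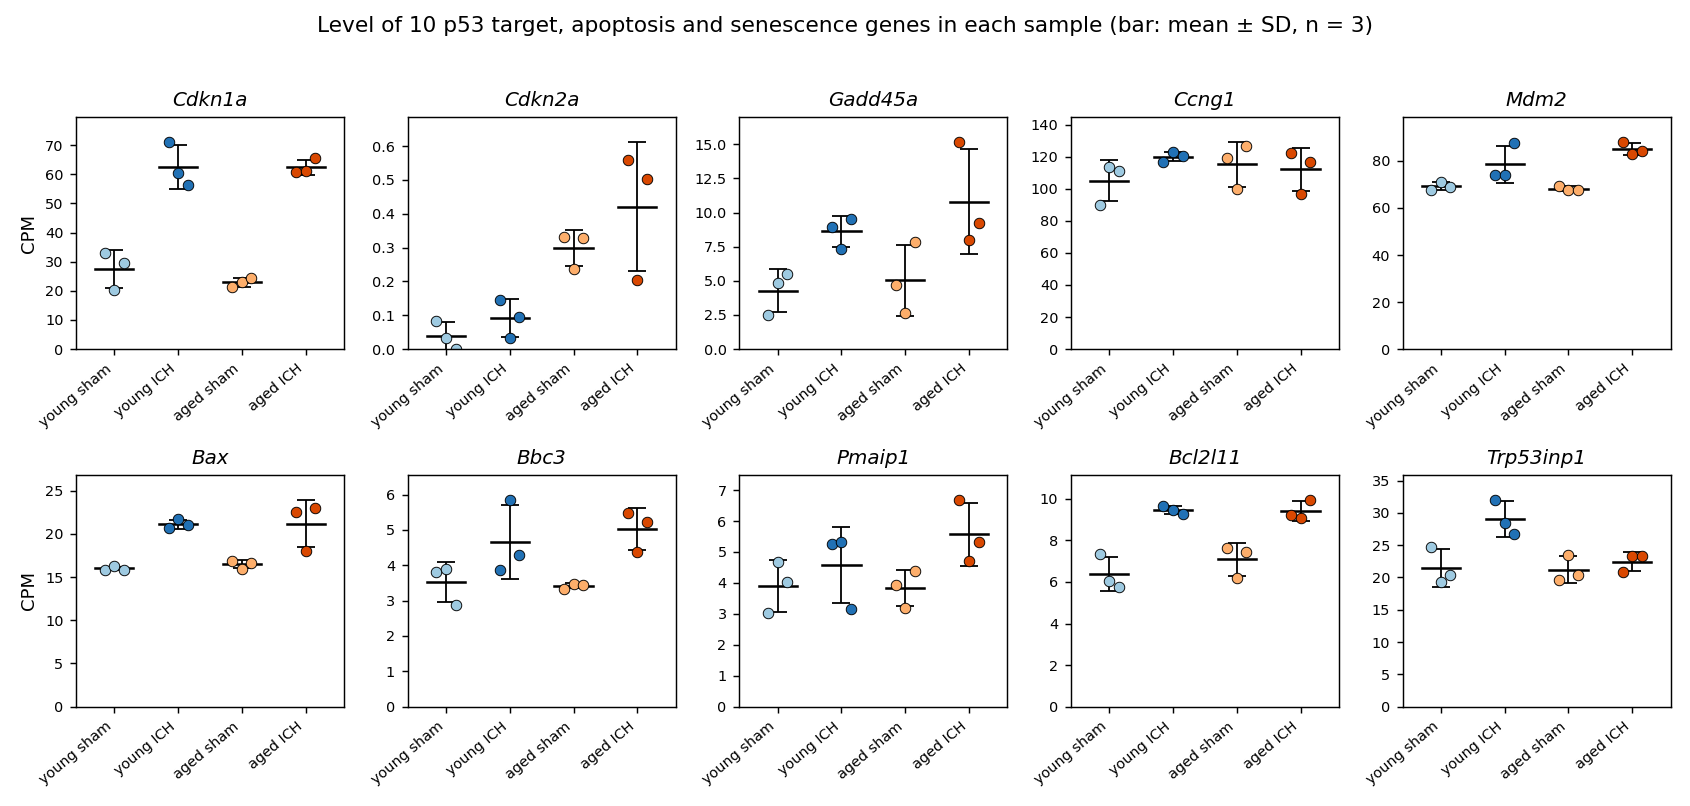
Level of each of the 10 genes in each sample, in CPM on axes that start at 0, with 1 point per sample, the mean as a bar and the SD as whiskers (n = 3 per group). The ICH samples of Cdkn1a lie between 56.3 and 71.1 CPM in both ages and the sham samples between 20.1 and 32.9 CPM, whereas Cdkn2a separates the aged from the young samples at levels under 0.6 CPM.

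The first question was what ICH did to these genes in each age. In young mice 4 of the 10 genes were upregulated and 0 downregulated at an adjusted P under 0.05 (edgeR, Benjamini-Hochberg over all genes tested), namely Cdkn1a, Bcl2l11, Bax and Trp53inp1, where 9.89% of all genes tested were upregulated and 9.23% downregulated. In aged mice again 4 were upregulated and 0 downregulated, namely Cdkn1a, Mdm2, Bax and Bcl2l11, against 7% and 6.15% of all genes. The median log2FC of the 10 genes was 0.42 in young and 0.46 in aged mice, beside 0.022 and 0.0018 over all genes tested. Under the criterion of FC > 1.5 or < 0.67 with an unadjusted P under 0.05, Cdkn1a and Gadd45a passed in both ages, which is 2 of 10 genes against 12.2% of all genes in young and 10.1% in aged mice. In each age 7 of the 10 genes had every ICH sample above every sham sample, which held for 18.5% of all genes in young and 17.8% in aged mice.

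Cdkn1a, the inhibitor of cyclin-dependent kinases through which p53 halts the cell cycle in G1, rose more than any other of the 10 genes past the adjusted threshold. Its levels were 32.9, 20.1 and 29.5 CPM in young sham and 71.1, 60.4 and 56.3 CPM in young ICH samples. In aged mice they were 21.3, 23.2 and 24.3 CPM after sham surgery and 60.7, 61.3 and 65.5 CPM after ICH. The 6 ICH samples all lay above the 6 sham samples and the ICH levels of the 2 ages overlapped. The log2FC was 1.19 ± 0.15 (SE) in young mice (adjusted P = 0.00137, edgeR) and 1.45 ± 0.15 in aged mice (adjusted P = 0.00157, edgeR). These calls held in all 18 alternative settings in each age, among them the one without the 3 choroid-rich libraries, in which the log2FC was 1.26 and 1.52. Of its exonic bases, 273 overlap an antisense gene, AC167363.2, that had 8 to 44 reads per sample against 634 to 2450 for Cdkn1a.

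Gadd45a, a small stress-response protein that takes part in growth arrest and DNA repair, showed a difference with ICH near that of Cdkn1a but varied more. It measured 2.49, 4.82 and 5.51 CPM in young sham and 8.97, 7.36 and 9.52 CPM in young ICH samples. The aged sham samples had 4.67, 2.63 and 7.82 CPM and the aged ICH samples 15.2, 8.02 and 9.24 CPM. ICH and sham did not overlap in either age, although the highest aged sham sample was close to the lowest aged ICH sample. The log2FC of 1.02 ± 0.38 (SE) in young mice and 1.10 ± 0.38 in aged mice did not pass the adjusted threshold (adjusted P = 0.0858 and 0.0794, edgeR). DESeq2 gave adjusted P = 0.0307 and 0.0182, a fit without the filter 0.0480 and 0.0373, and without aged sham replicate 3 the aged log2FC was 1.57 (adjusted P = 0.0309). An antisense gene, E230016M11Rik, with 117 to 200 reads per sample, overlaps 337 of its exonic bases, so the low counts of Gadd45a may be shared with it to an unknown extent.

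Of the feedback genes of p53, Mdm2 passed the test in aged and Trp53inp1 in young mice, and Ccng1 in neither. Mdm2, the ubiquitin ligase that degrades p53, was at 67.5, 71.2 and 69.1 CPM in young sham, 74.1, 73.9 and 87.8 in young ICH, 69.5, 67.5 and 67.8 in aged sham and 88.1, 83.2 and 84.0 in aged ICH samples. Every ICH sample lay above every sham sample of its age. The log2FC was 0.32 ± 0.07 (SE) in aged mice (adjusted P = 0.0133, edgeR) and 0.18 ± 0.07 in young mice (adjusted P = 0.0826, edgeR). The aged call was lost without aged ICH replicate 1 (adjusted P = 0.0635) and without the 3 choroid-rich libraries (0.0629), and the young one was gained without young ICH replicate 2 (0.0498). Ccng1, whose product, cyclin G1, takes part in the control of Mdm2, was the most abundant of the 10 genes and lay between 90.2 and 127 CPM in all 12 samples. Its log2FC was 0.19 ± 0.11 in young (adjusted P = 0.262) and -0.04 ± 0.11 in aged mice (adjusted P = 0.852, edgeR).

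Trp53inp1, a cofactor of p53 in stress and autophagy, had 24.8, 19.3 and 20.3 CPM in young sham and 32.0, 28.4 and 26.7 CPM in young ICH samples. In aged mice it had 19.6, 23.5 and 20.4 CPM after sham surgery and 20.8, 23.4 and 23.2 CPM after ICH. The young ICH samples were the highest 3 of the 12, and the aged groups overlapped. The log2FC was 0.44 ± 0.11 (SE) in young mice (adjusted P = 0.0193, edgeR) and 0.08 ± 0.11 in aged mice (adjusted P = 0.662, edgeR). The young call was lost without young ICH replicate 1 (adjusted P = 0.0671), young sham replicate 2 (0.0870) or young sham replicate 3 (0.0687), and with only these 2 groups in the fit (0.0524). The responses of the 2 ages differed by -0.35 ± 0.16 on the log2 scale (unadjusted P = 0.0452, adjusted P = 1, edgeR), which did not pass after adjustment.

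Bax is a pore-forming effector of mitochondrial apoptosis. Its levels were 15.9, 16.2 and 15.9 CPM in young sham, 20.7, 21.7 and 21.0 in young ICH, 16.9, 15.98 and 16.6 in aged sham and 22.5, 18.0 and 23.0 in aged ICH samples. All ICH samples were above all sham samples, with aged ICH replicate 2 the closest to them. The log2FC was 0.40 ± 0.09 (SE) in young mice (adjusted P = 0.0104) and 0.36 ± 0.09 in aged mice (adjusted P = 0.0226, edgeR). In young mice the call held in all 18 alternatives. In aged mice it was lost without aged ICH replicate 1 (0.104) or 3 (0.0903) and without aged sham replicate 1 (0.0607), 2 (0.0801) or 3 (0.0525), and with the aged groups alone in the fit (0.0561). A gene on the same strand, Gm45808, shares 192 exonic bases with Bax and was listed at 0 reads in all 12 samples.

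The BH3-only genes trigger Bax and Bak1 or neutralize their inhibitors. Bcl2l11 was at 7.32, 6.06 and 5.78 CPM in young sham and 9.66, 9.45 and 9.27 CPM in young ICH samples, and at 7.65, 6.17 and 7.43 CPM in aged sham and 9.20, 9.07 and 9.96 CPM in aged ICH samples. The 6 ICH samples lay above the 6 sham samples. The log2FC was 0.57 ± 0.12 (SE) in young mice (adjusted P = 0.00847) and 0.41 ± 0.12 in aged mice (adjusted P = 0.0432, edgeR). The young call held in all 18 alternatives, whereas the aged call, near the threshold, held in 6 of 18. It was lost without aged ICH replicate 1 (0.112), 2 (0.0590) or 3 (0.134), aged sham replicate 1 (0.0709), 2 (0.152) or 3 (0.0699), young ICH replicate 1 (0.0534) or young sham replicate 2 (0.0573), and further without the filter (0.0948), with the aged groups alone (0.0605), with a replicate block (0.0518) and without the 3 choroid-rich libraries (0.168).

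Bbc3 (Puma) and Pmaip1 (Noxa), the BH3-only genes that are classical p53 targets, were low and did not pass the adjusted threshold in either age. Bbc3 ranged from 2.87 to 3.90 CPM in young sham and 3.86 to 5.86 CPM in young ICH samples, with overlap, and from 3.34 to 3.47 CPM in aged sham and 4.37 to 5.49 CPM in aged ICH samples, without overlap. Its log2FC was 0.40 ± 0.18 (SE) in young (adjusted P = 0.144) and 0.56 ± 0.18 in aged mice (adjusted P = 0.0639, edgeR), and DESeq2 (adjusted P = 0.0324), a fit on the aged groups only (0.0407) and a fit without young ICH replicate 2 (0.0334) called the latter. Pmaip1 ranged from 3.01 to 4.66 CPM in young sham and 3.15 to 5.33 CPM in young ICH samples. In aged mice it ranged from 3.20 to 4.37 CPM after sham surgery and 4.71 to 6.69 CPM after ICH, without overlap. Its log2FC was 0.23 ± 0.23 in young (adjusted P = 0.531) and 0.54 ± 0.23 in aged mice (adjusted P = 0.154, edgeR).

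**Figure D2:**
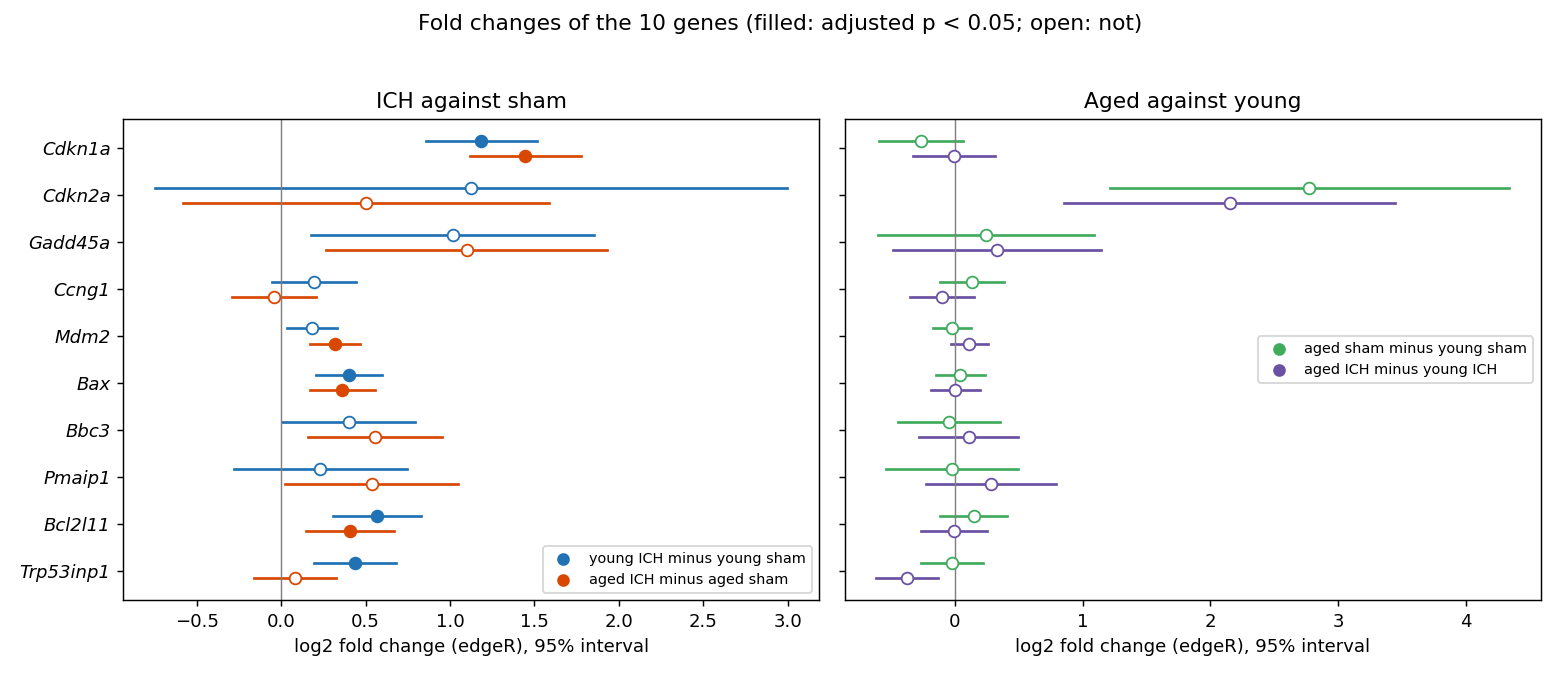
Log2 fold changes of the 10 genes with 95% intervals from the edgeR fit, for ICH against sham in each age (left) and for aged against young mice after each surgery (right). Filled points have an adjusted P under 0.05, which 4 genes reach in young and 4 in aged mice after ICH and 0 reach in the age comparisons.

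When ICH was compared with sham over both ages together, a comparison added after the data were seen, 7 of the 10 genes were upregulated and 0 downregulated, against 16.7% and 15.8% of all genes. These were Cdkn1a (log2FC 1.32 ± 0.11, SE), Gadd45a (1.06 ± 0.27), Bcl2l11 (0.49 ± 0.08), Bbc3 (0.48 ± 0.13), Bax (0.38 ± 0.06), Trp53inp1 (0.26 ± 0.08) and Mdm2 (0.25 ± 0.05), with adjusted P from 4.18e-05 to 0.0249 (edgeR). The call of Trp53inp1 was lost without aged ICH replicate 3, aged sham replicate 1 or 3, young ICH replicate 1, or young sham replicate 2 or 3 (adjusted P up to 0.065). Without the 3 choroid-rich libraries those of Bbc3 (0.0504), Trp53inp1 (0.0556) and Gadd45a (0.0847) were lost. Pmaip1 (0.39 ± 0.17), Cdkn2a (0.81 ± 0.50) and Ccng1 (0.08 ± 0.08) did not pass, apart from Pmaip1 without young ICH replicate 3 (adjusted P = 0.0260).

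The second question was whether age changed these genes. The gene with the largest difference among the 10 was Cdkn2a, which did not pass the adjusted threshold in either surgery. Only 0, 1 and 3 of its reads were counted in the young sham samples and 1, 3 and 5 in the young ICH samples, whereas the aged sham samples had 7, 10 and 11 reads and the aged ICH samples 6, 16 and 20. Every aged sample was above every young sample, although all of them had few reads. Summed over samples and scaled to library size, the reads were 7.36 times as frequent in aged as in young sham mice (28 against 4 reads, 95% exact Poisson interval 2.57 to 28.9) and 4.62 times as frequent in aged as in young ICH mice (42 against 9 reads, 2.22 to 10.8), where the intervals cover counting error only. The gene entered the tests through 4 aged samples above 0.32 CPM and 0 young ones, so the filter itself favored a difference with age.

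In the fit the log2FC of Cdkn2a was 2.77 ± 0.71 (SE) between aged and young sham mice (adjusted P = 0.192) and 2.15 ± 0.59 between aged and young ICH mice (adjusted P = 0.267, edgeR), so it did not pass in either. Averaged over both surgeries, a comparison added after the data were seen in which 1.27% of all genes were called, it was 2.46 ± 0.46 (adjusted P = 0.0305, edgeR). DESeq2 gave Cdkn2a no adjusted P there. Since the filter let Cdkn2a in through aged samples only, the edgeR P and the share beside it do not support a difference with age. The edgeR call was lost without the 3 choroid-rich libraries (0.118), and without aged ICH replicate 1 (0.0815) or 3 (0.0824), aged sham replicate 1 (0.0723) or 3 (0.0893), young ICH replicate 1 (0.0570) or 2 (0.0503), or young sham replicate 2 (0.0804) or 3 (0.0789). ICH itself gave ratios of 2.29 (0.64 to 10.2) in young and 1.44 (0.871 to 2.41) in aged mice, whose intervals include no change. The annotation lists 2 transcripts of Cdkn2a (chr4:89274471-89294653, minus strand) that start at separate promoters, and counts per gene do not separate p16INK4a from p19ARF.

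None of the 10 genes passed the adjusted threshold between aged and young sham mice (0 genes, against 0.102% of all genes) or between aged and young ICH mice (0 genes, against 0.0558%) in edgeR. DESeq2 also called 0 genes in each, but gave Cdkn2a no adjusted P between the ICH groups and an adjusted P of 0.118 between the sham groups. At an unadjusted P under 0.05 there were 1 and 2 of the 10 genes, against 12.3% and 9.54% of all genes. By the fold change criterion Cdkn2a passed in each, that is 1 of 10 genes against 3.72% and 3.52% of all genes. The unadjusted counts include Cdkn2a too. It entered the tests through aged samples only, so its passing here does not support a difference with age. Trp53inp1 was lower in aged than in young ICH mice, with all 3 aged samples (20.8 to 23.4 CPM) below the 3 young ones (26.7 to 32.0 CPM), a log2FC of -0.37 ± 0.11 (SE) and an adjusted P of 0.317 (edgeR). For the other 8 genes the log2FC between aged and young lay from -0.26 to 0.25 after sham surgery and from -0.10 to 0.33 after ICH. The 95% interval for Cdkn1a was -0.32 to 0.32 between the ICH groups and -0.59 to 0.06 between the sham groups. Between the ICH groups it was -0.19 to 0.20 for Bax and, much wider, -0.48 to 1.14 for Gadd45a.

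The difference between the responses to ICH in aged and young mice was tested directly as an interaction. No gene passed the adjusted threshold, neither of the 10 (0 genes) nor of all genes (0%), and by the fold change criterion 0 of the 10 genes passed, against 1.56% of all genes. DESeq2 also called 0 of the 10. At an unadjusted P under 0.05 only Trp53inp1 passed among the 10, against 2.82% of all genes. The interaction of Cdkn1a was 0.26 ± 0.21 (SE) on the log2 scale, with a 95% interval of -0.20 to 0.72, whose upper end is a response larger by that much in aged mice.

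**Figure D3:**
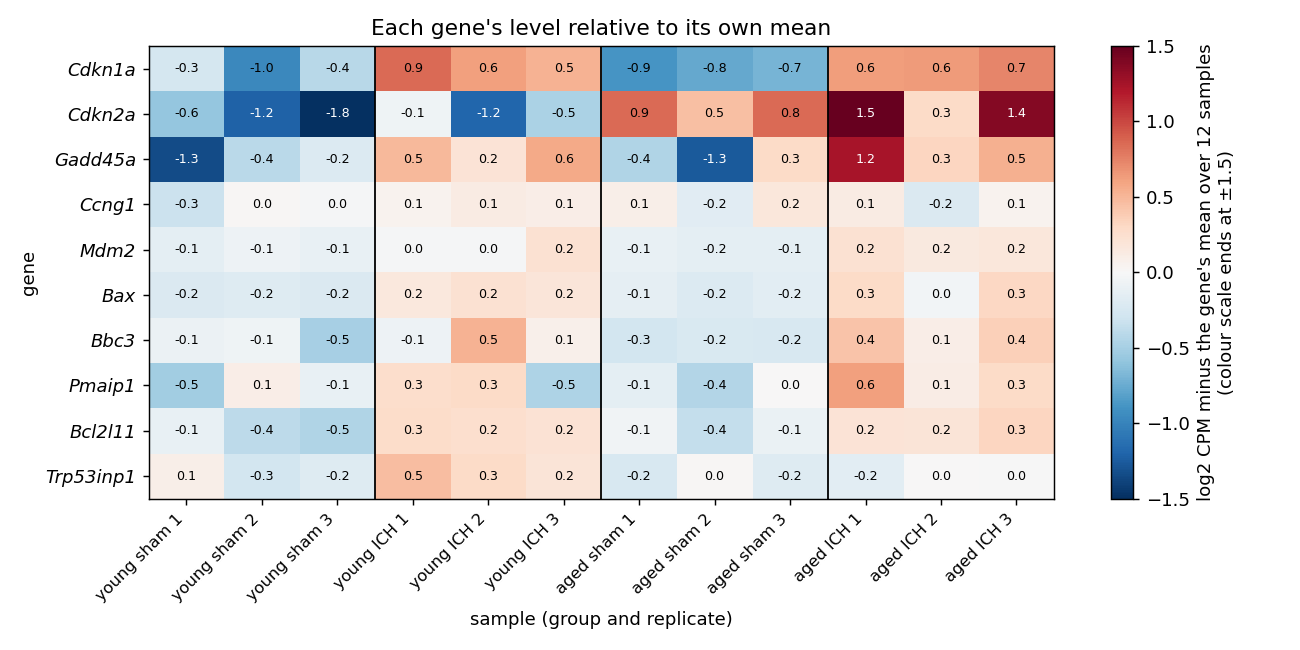
Log2 CPM of each gene (rows) in each sample (columns) minus the mean of that gene over the 12 samples, with the colour scale ending at 1.5 in each direction. Cdkn1a is above its mean in all 6 ICH samples and below it in all 6 sham samples, Cdkn2a splits by age, and Ccng1 and Mdm2 stay near their means.

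Over the 12 samples the genes whose centred log2 CPM was nearest to that of Cdkn1a among the 21494 others tested were Map3k6 (root mean square difference 0.18), Cnr2 (0.21) and Amigo2 (0.23). Map3k6, for example, averaged 8.17 CPM in young sham, 22.9 in young ICH, 8.73 in aged sham and 22.0 in aged ICH samples. The nearest of the 10 genes to Cdkn1a was Bcl2l11, at 0.47.

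The wider p53 pathway was described by counts of listed genes that passed the adjusted threshold (edgeR), with the medians of each list beside those of all genes given above. Of all genes tested, 9.89% rose and 9.23% fell in young mice, and 7% rose and 6.15% fell in aged mice. Trp53 itself rose by a log2FC of 0.25 ± 0.07 (SE) in young (adjusted P = 0.0280) and 0.25 ± 0.07 in aged mice (adjusted P = 0.0368), calls that were lost without young ICH replicate 3 or young sham replicate 1 or 2 in young mice and without aged ICH replicate 1 or 3 or any aged sham sample in aged mice (adjusted P up to 0.12 and 0.126). Mdm4, the second inhibitor of p53, had a log2FC of -0.12 ± 0.09 and -0.04 ± 0.09 (adjusted P = 0.379 and 0.796). Of 12 genes of p53 and its upstream regulators, 2 rose and 2 fell in young and 1 rose and 1 fell in aged mice, with medians of -0.16 and -0.06. The aged counts were near the shares of all genes. The counts of this list were not stable, since 0 rose in young mice without young ICH replicate 3 or young sham replicate 1 or 2, and 0 fell without young sham replicate 2. Chek1, a checkpoint kinase and the other gene that rose beside Trp53 in young mice, was called in 1 of 12 fits that left out 1 sample, and Hipk2, a kinase of p53 that fell in aged mice, in 6 of 12. Of 25 further p53 target genes, 10 rose and 3 fell in young mice (median 0.25) and 4 rose and 2 fell in aged mice (median 0.30). Without young sham replicate 2 only 3 rose and 1 fell in young mice, and without aged ICH replicate 1 only 2 rose and 1 fell in aged mice. The calls over all genes fell as well, from 4110 of 21495 to 1858 of 22022 genes without the former and from 2828 of 21495 to 679 of 21986 genes without the latter. Without the 3 choroid-rich libraries fewer genes were called in each age, both in this list and over all genes, in a fit with 1 aged ICH sample left.

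Among these targets the smallest P in each age was that of Zmat3, which fell, and those that rose included death receptors. Tnfrsf10b, the receptor for TRAIL, rose by a log2FC of 1.47 ± 0.23 (SE) in young and 1.26 ± 0.23 in aged mice (adjusted P = 0.00261 and 0.00761), and Fas by 1.22 ± 0.24 and 1.13 ± 0.24 (adjusted P = 0.00603 and 0.0127). Rps27l, a p53-induced paralog of a ribosomal protein, rose by 0.84 ± 0.17 and 0.96 ± 0.17 (adjusted P = 0.00769 and 0.00777). Zmat3, an RNA-binding p53 target, had a log2FC of -0.40 ± 0.06 and -0.34 ± 0.06 (adjusted P = 0.00177 and 0.00547). Leaving out any 1 library kept these calls, except that of Fas in aged mice without aged ICH replicate 1 (0.0533). Averaged over both surgeries Zmat3 was also lower in aged than in young mice, by -0.24 ± 0.04 (adjusted P = 0.0190), a call lost without aged ICH replicate 1 or 3, aged sham replicate 3, young ICH replicate 1 or young sham replicate 3 (adjusted P up to 0.0642).

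Of the BCL2 family, 3 of 7 antiapoptotic genes rose and 1 fell in young mice (median 0.72), and 1 rose and 1 fell in aged mice (median 0.78). The shares of all genes that rose and fell were 9.89% and 9.23% in young and 7% and 6.15% in aged mice. The list included Bcl2a1a, Bcl2a1b and Bcl2a1d, which averaged at most 1.54 CPM in any group, and its medians rest in part on these low genes. Bcl2l1 averaged 95.1 CPM in young sham and 115 CPM in young ICH samples, and Bcl2l2 132 CPM in both. The 3 that rose in young mice were Mcl1, Bcl2a1d and Bcl2l1. The Bcl2l1 call was lost without young ICH replicate 1 or 3 or young sham replicate 2 or 3 (adjusted P up to 0.106, edgeR). Mcl1, which binds Bim and Noxa, rose by a log2FC of 0.72 ± 0.08 (SE) in young and 0.79 ± 0.08 in aged mice (adjusted P = 0.00107 and 0.0015). Bcl2, the founding member, fell in both (log2FC -0.48 ± 0.10 and -0.48 ± 0.10, adjusted P = 0.00879 and 0.0137), but its aged call was lost without aged ICH replicate 1 or 3 or aged sham replicate 2 (adjusted P up to 0.0553). Of 6 other proapoptotic family genes tested, only Bak1, the second pore-forming effector, passed, with 0.43 ± 0.11 in young and 0.42 ± 0.11 in aged mice (adjusted P = 0.0197 and 0.0309). It failed without young ICH replicate 1 or young sham replicate 1 or 2 in young mice, and without aged ICH replicate 1 or 3 or aged sham replicate 2 or 3 in aged mice (adjusted P up to 0.0751 and 0.138).

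Of 12 caspase cascade genes, 4 rose and 1 fell in young mice (median 0.21), and 3 rose and 1 fell in aged mice (median 0.19). Of all genes 9.89% rose and 9.23% fell in young mice and 7% rose and 6.15% fell in aged mice. The count of 1 fallen gene is near those shares. Casp8, the initiator caspase of the death receptors, rose by 0.96 ± 0.20 (SE) and 1.07 ± 0.20 (adjusted P = 0.00829 and 0.00873), and Birc3, an inhibitor of apoptosis and target of NF-κB, by 0.86 ± 0.18 and 0.87 ± 0.18 (adjusted P = 0.00886 and 0.0123, the latter lost without aged ICH replicate 1, at 0.0504). The count of higher genes fell to 2 in young mice without young ICH replicate 1 or 3 or any young sham sample, and to 1 in aged mice without aged ICH replicate 1. Calls over all genes fell in each of these fits too, from 2828 of 21495 to 679 of 21986 genes in the last. The gene that fell was Xiap, an inhibitor of caspases, whose call held in 1 of 12 fits that left out 1 sample in young mice (adjusted P up to 0.163) and was lost without aged ICH replicate 1 in aged mice (0.0666). In young mice fewer of these genes were called higher without the 3 choroid-rich libraries, and fewer of all genes were called, in a fit that left 1 aged ICH sample.

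Among 8 other inhibitors of cyclin-dependent kinases, cyclin G and Gadd45 genes, 2 rose and 0 fell in young mice (median 0.46), and 2 rose and 1 fell in aged mice (median 0.59). These 2 were the paralogs of Gadd45a in both ages. The shares of all genes that rose and fell were 9.89% and 9.23% in young and 7% and 6.15% in aged mice. Gadd45g rose by 1.18 ± 0.18 (SE) in young and 1.31 ± 0.18 in aged mice (adjusted P = 0.00216 and 0.00378), and Gadd45b by 0.75 ± 0.15 and 1.17 ± 0.15 (adjusted P = 0.00703 and 0.00316). Averaged over both surgeries, Gadd45b was higher in aged than in young mice, by 0.52 ± 0.11 (adjusted P = 0.0415), but this call was lost without any 1 of the samples other than aged ICH replicate 2, aged sham replicate 2 and young ICH replicate 3 (adjusted P up to 0.113). Of 9 G1 cyclins and their kinases, 4 rose and 1 fell in young and 4 rose and 0 fell in aged mice (medians 0.36 and 0.30). Without the 3 choroid-rich libraries fewer rose, and fewer of all genes were called. Without young sham replicate 2 the young count of higher genes was 1, and without aged ICH replicate 1 or aged sham replicate 2 the aged one was 0. Calls over all genes fell to 1858 of 22022, 679 of 21986 and 1273 of 22063 genes in these fits. Cdk4, the kinase partner of D cyclins, rose by 0.36 ± 0.07 and 0.30 ± 0.07 (adjusted P = 0.00624 and 0.0189), the aged call being lost without aged ICH replicate 1 or 3 or aged sham replicate 2 or 3 (up to 0.0899). Of 10 mitosis genes 1 rose in each age, near the share of all genes, and 0 fell, with medians of 0.46 and 0.91. By the fold change criterion 2 of them were higher in young and 9 in aged mice, against 1861 and 1557 of the 21495 genes tested. Their baseline also differed, with a median log2FC of -0.48 between aged and young sham mice. Between aged and young ICH mice the median was -0.17.

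Among these pathway lists the largest medians were those of senescence-associated secretory genes, which are also general inflammatory and wound-response genes. Of 18 such genes, 13 rose in young and 12 in aged mice and 0 fell (medians 2.12 and 1.63). Of all genes 9.89% rose in young and 7% in aged mice. Without the 3 choroid-rich libraries fewer of the 18 rose, and fewer of all genes were called. Without young sham replicate 2 the young count was 6, and without aged ICH replicate 1 the aged count was 6. In these fits 1858 of 22022 and 679 of 21986 of all genes were called. Plaur, the urokinase receptor, rose by a log2FC of 2.19 ± 0.28 (SE) in young and 1.86 ± 0.27 in aged mice (adjusted P = 0.00139 and 0.00427). Igfbp3, which binds insulin-like growth factors and is itself a p53 target, rose by 1.51 ± 0.13 and 1.31 ± 0.13 (adjusted P = 0.00043 and 0.0015), and Timp1, an inhibitor of metalloproteinases, by 2.44 ± 0.35 and 2.40 ± 0.35 (adjusted P = 0.00187 and 0.00441). Averaged over both surgeries Vegfa, the endothelial growth factor, was higher in aged mice by 0.39 ± 0.06 (adjusted P = 0.0152), lost without aged sham replicate 3 (0.0528) or young sham replicate 3 (0.0547).

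**Figure D4:**
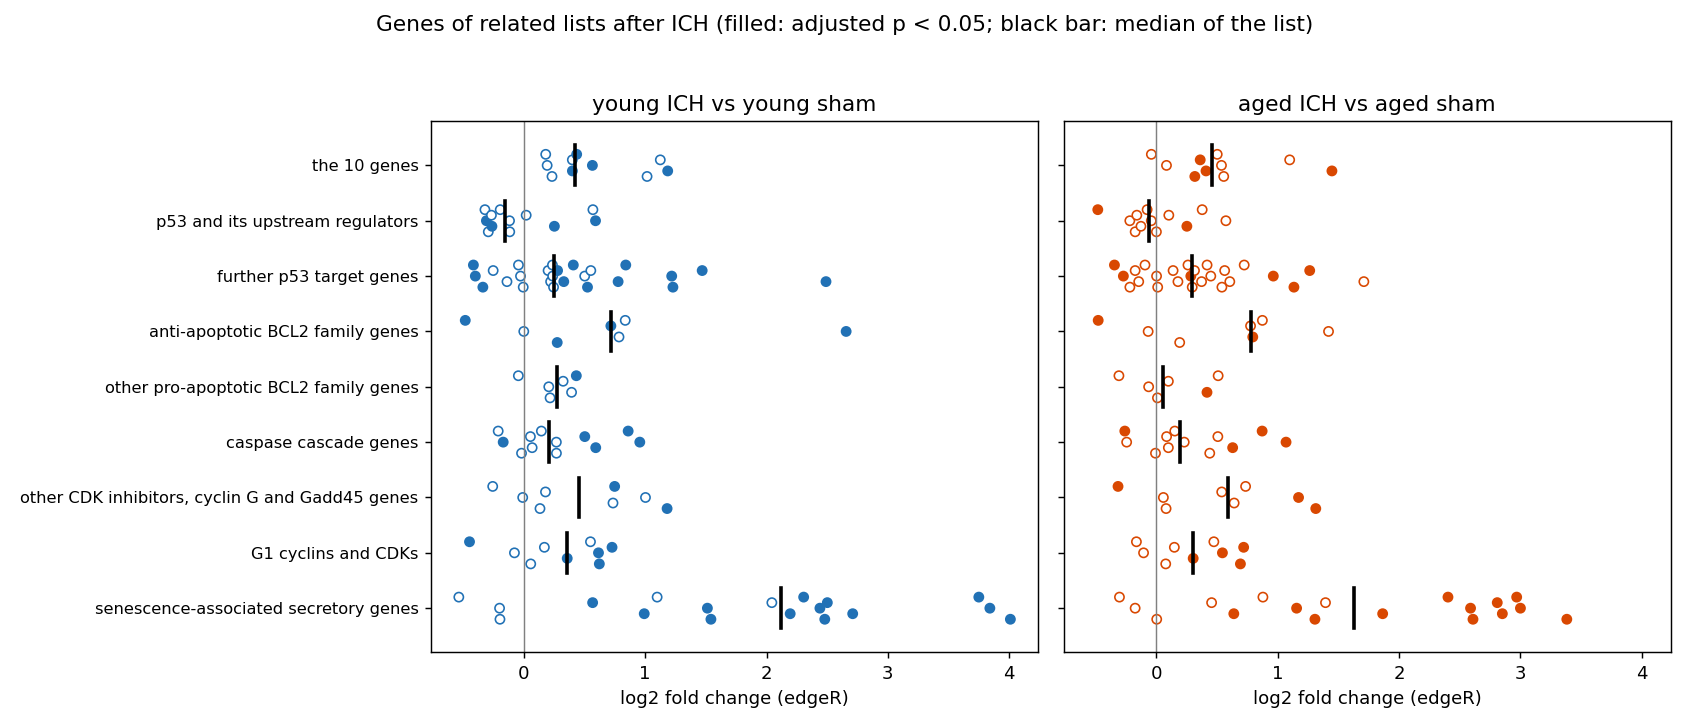
Log2 fold changes after ICH of the 10 genes and of the genes of 8 related lists, in young (left) and aged mice (right), with 1 point per gene, filled where the adjusted P was under 0.05, and the median of each list as a black bar. The senescence-associated secretory genes reach the largest values, with medians of 2.12 and 1.63, and the p53 regulators lie around 0.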

How the data were processed

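Per the submitters' processing notes and the study's methods, the authors used HISAT2 for alignment to GRCm38.p6 and featureCounts for counting, and the deposited table holds raw counts and FPKM of 54833 genes. The strand setting and the treatment of reads with several alignments are not given in the sources used here. Counts were tested with edgeR 4.0.16 (R 4.3.3): filterByExpr with a minimum count of 10, TMM, the quasi-likelihood test, all 12 samples with 1 coefficient per group, and Benjamini-Hochberg adjustment over 21495 genes. CPM are counts scaled to the TMM-adjusted library size, used for 1 gene between samples, and the deposited FPKM were used between genes. The test was checked on simulated counts. Alternatives were DESeq2 1.42.0, RLE scaling, no filter, fits on 2 groups, a replicate block, leaving out each sample, and, added after the data were seen, leaving out 3 libraries with over 1000 CPM of choroid plexus markers. Gene positions and overlaps came from GENCODE (GRCm38). The 10 genes and all lists were chosen with earlier results of these data known. Named were the 10 genes, Trp53, Mdm4, the genes nearest to Cdkn1a and, from each list, some of the up to 3 called genes with the smallest P in each direction. Which of the latter are described was decided after their values were seen.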

Additional observations from a re-analysis of the deposited data

How the results depend on the processing

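Tissue pools, 3 per group, and 28410896 reads or more per sample limit the precision. It was lowest for Cdkn2a, which had few reads, Gadd45a, whose samples varied more, and Pmaip1 and Bbc3, which were low. By the fold change criterion, 2 of the 10 genes passed in young ICH and 2 in aged ICH, against 12.2% and 10.1% of all genes. Between the sham groups and between the ICH groups 1 passed, against 3.72% and 3.52%. It was Cdkn2a in each, which entered the tests through aged samples only. With DESeq2, 0 genes were called for age averaged over surgeries, where it gave Cdkn2a no adjusted P. Without the 3 choroid-rich libraries, chosen after seeing the data, which leaves 1 aged ICH sample assumed to vary like the other groups, the counts were 2 for aged ICH, 4 for ICH averaged over ages and 0 for age averaged over surgeries, and 431 of 22844 genes were called for aged ICH in place of 1505 up and 1323 down. When single samples were left out, 1 to 5 genes were called for aged ICH (1 without aged ICH replicate 1, 5 without young ICH replicate 2) and 0 to 1 for age averaged over surgeries. The causes were not tested.

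Directions turned for log2FC that were not called. Between the ICH groups these were Bax with DESeq2 (-0.00018), Cdkn1a with the replicate block (0.00019) and Bcl2l11 without the choroid-rich libraries (0.062). Without those libraries they were also Ccng1 in aged ICH (0.027), Bax (0.085) and Gadd45a (-0.063) in the interaction, and Pmaip1 for age averaged over surgeries (-0.0076). When single samples were left out, the ranges that crossed 0 were, for aged ICH, Mdm4 (-0.11 to 0.030) and Ccng1 (-0.13 to 0.055). Between the sham groups they were Bbc3 (-0.17 to 0.029), Pmaip1 (-0.18 to 0.13), Trp53inp1 (-0.10 to 0.098) and Gadd45a (-0.22 to 0.55). Between the ICH groups they were Cdkn1a (-0.075 to 0.098), Bbc3 (-0.011 to 0.30), Bax (-0.058 to 0.11) and Bcl2l11 (-0.050 to 0.017). In the interaction they were Bax (-0.10 to 0.065) and Gadd45a (-0.24 to 0.55), and for age averaged over surgeries Bbc3 (-0.033 to 0.13), Bax (-0.0066 to 0.077) and Ccng1 (-0.032 to 0.065).

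The labels name no pairing of the replicate numbers, and none was detected. Samples with the same number had correlations from -0.454 to 0.235 (18 pairs, median -0.0376). Those with different numbers had correlations from -0.374 to 0.41 (36 pairs, median 0.0134). With 3 samples per group this check has little power to find a pairing. With the replicate block the Bcl2l11 call in aged ICH was lost (adjusted P = 0.0518, edgeR) and no other call of the 10 genes changed.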
